A study of Rattus norvegicus with 12 samples.

Results

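Immediate early and activity-induced genes were chosen by name: a list of 43 rat genes was matched to the gene symbols that come with the array table, older names included. Of the 43 genes, 41 were measured, on 61 spots, among 14871 genes in all. No spot carried the symbol of Fosb or Btg2. Cyr61 was matched through its current symbol Ccn1. Of the 41 measured genes, 16 had several spots, 36 in number, which were averaged.

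RNA came from slices of rat brain in which entorhinal cortex and hippocampus were kept alive side by side in culture, so that entorhinal axons grow into the hippocampal slice. After 15 days in vitro the entorhino-hippocampal pathway of the treated cultures was severed, and these axotomized cultures were compared with non-axotomized cultures kept for the same time, at 1, 3 and 7 days. Both kinds of culture came from wild-type animals and grew in a medium with 25% horse serum. The species label is Rattus norvegicus, while the treatment protocol speaks of mice, and the sources used here do not settle this. On each day there were 2 biological replicates, each hybridised on 2 two-colour arrays with exchanged dyes (Cy5 and Cy3), for 12 arrays in all. The labels call the replicates biological without saying how many cultures or animals went into each, so the p-values measure only the spread between these samples.

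Values are log2 ratios, axotomized over non-axotomized. This direction is likely from the array titles and from the order of the channels, but it is not stated, and if it ran the other way every sign given here would turn. A replicate is the mean of its 2 arrays, and a day is the mean of its 2 replicates. The median ratio of all genes was close to 0 on each day (0.0098, 0.0063 and 0.0033). A table of ratios holds no signal intensity, so neither the level of a gene nor the presence of a cell type could be checked, and no filter on low values was applied. All 41 measured genes were therefore tested. In whole slices, fewer cells of a type and less RNA per cell cannot be told apart.

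Immediate early genes are transcribed soon after a stimulus by factors that are already present in the cell, such as CREB and the serum response factor with its Elk partners, which are switched on by calcium and MAP kinase signals. Many of their products are transcription factors, among them the AP-1, EGR and NR4A families, which act on later genes. Others act at the synapse, as Arc and Homer1 do, are secreted, as BDNF and activin are, or switch the kinase signals off again, as the dual-specificity phosphatases do. In hippocampus and entorhinal cortex they are widely used as markers of neuronal firing, while several also respond to injury and to serum in glia and other cells.

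At day 1 most of these genes had ratios below 0, that is, less RNA in the axotomized cultures. Of the 41, 37 had a mean ratio below 0, and 33 were below 0 in both replicates, where 26% of all genes were. On all 4 arrays of the day 22 lay below 0, against 7.56% of all genes, and 0 lay above 0 on all 4, against 11.1% of all genes. The median was -0.25, with -0.28 in replicate 1 and -0.18 in replicate 2. Ier3, Cyr61, Gadd45g and Bhlhe40 were lower at an adjusted p under 0.05 (limma, Benjamini-Hochberg over all genes, two-sided), and 0 genes of the list were higher. Of all genes 0.222% were lower by the same rule. At an unadjusted p under 0.05 in limma, 23 of the 41 genes were lower and 0 higher, against 5.42% and 7.81% of all genes.

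By day 3 the genes lay on both sides of 0, and by day 7 more lay above 0 than below. At day 3 the median was 0.041, with 28 genes above 0, of which 15 were above 0 in both replicates (32.1% of all genes). On all 4 arrays of day 3, 11 lay above 0 (12.6% of all genes) and 4 below (10.4%). Gadd45a alone passed the test, as lower (0.437% of all genes were lower by this rule), and at an unadjusted p under 0.05 limma gave 7 of the 41 higher and 2 lower (7.81% and 6.62% of all genes). At day 7 the median was 0.079, with 29 genes above 0, of which 21 were above 0 in both replicates (31.7% of all genes). On all 4 arrays of day 7, 17 genes lay above 0 (9.24% of all genes) and 4 below (8.18%). No gene of the list passed the test at day 7, nor did any gene on the array (0%); at an unadjusted p under 0.05 limma gave 13 of the 41 higher and 2 lower, against 4.83% and 4.53% of all genes.

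**Figure D1:**
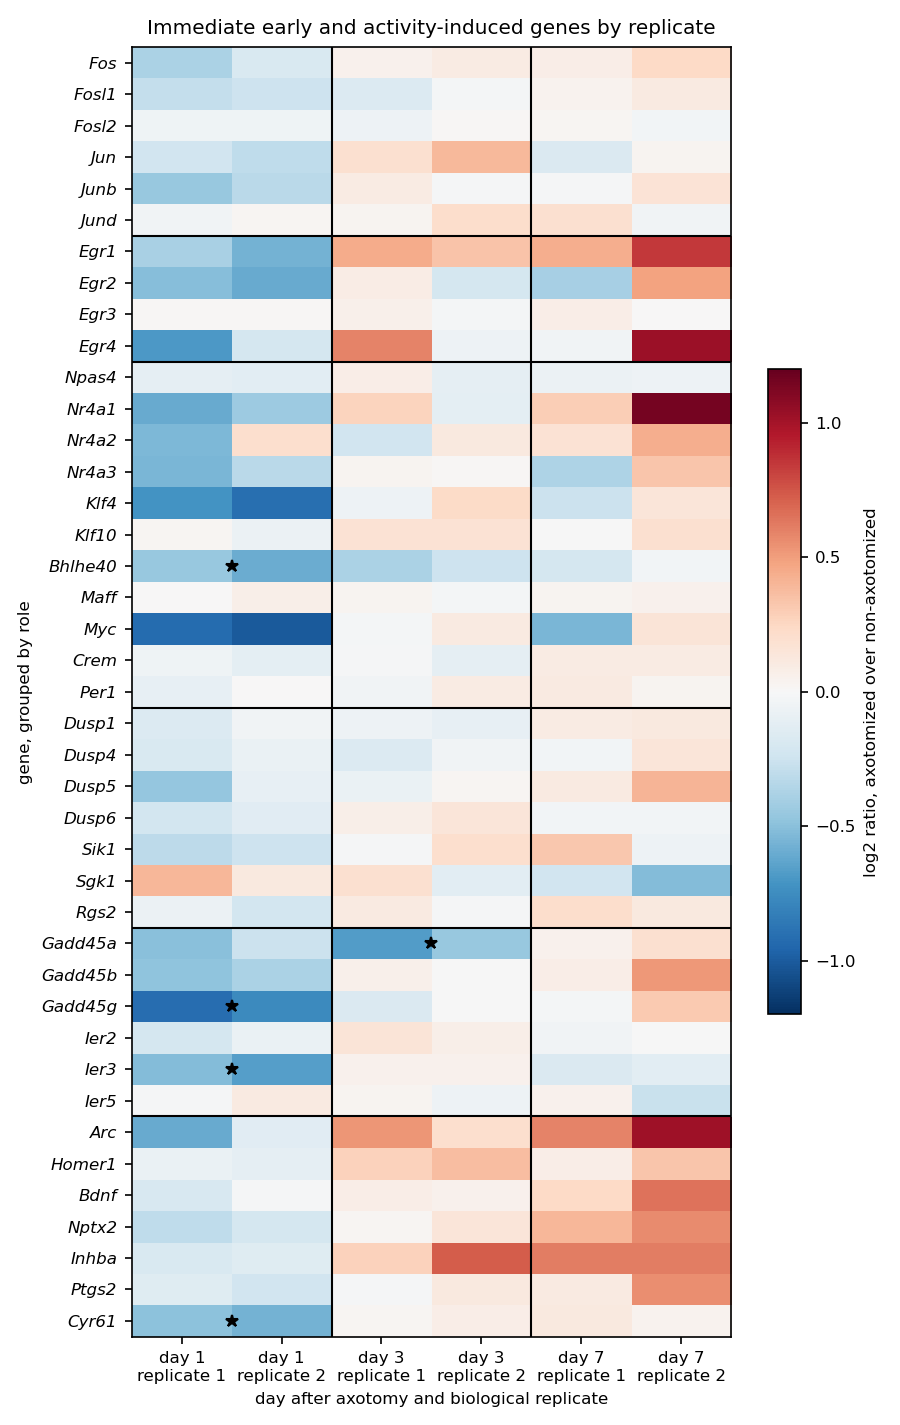
Log2 ratio of axotomized over non-axotomized RNA for the 41 measured genes (vertical axis, grouped by role) in the 6 biological replicates (horizontal axis), with blue below 0 and red above 0. Stars mark the 5 values that passed the limma test on that day; most of day 1 is blue, and the lowest block, the synaptic and secreted effectors, is red in both replicates of day 7.

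**Figure D2:**
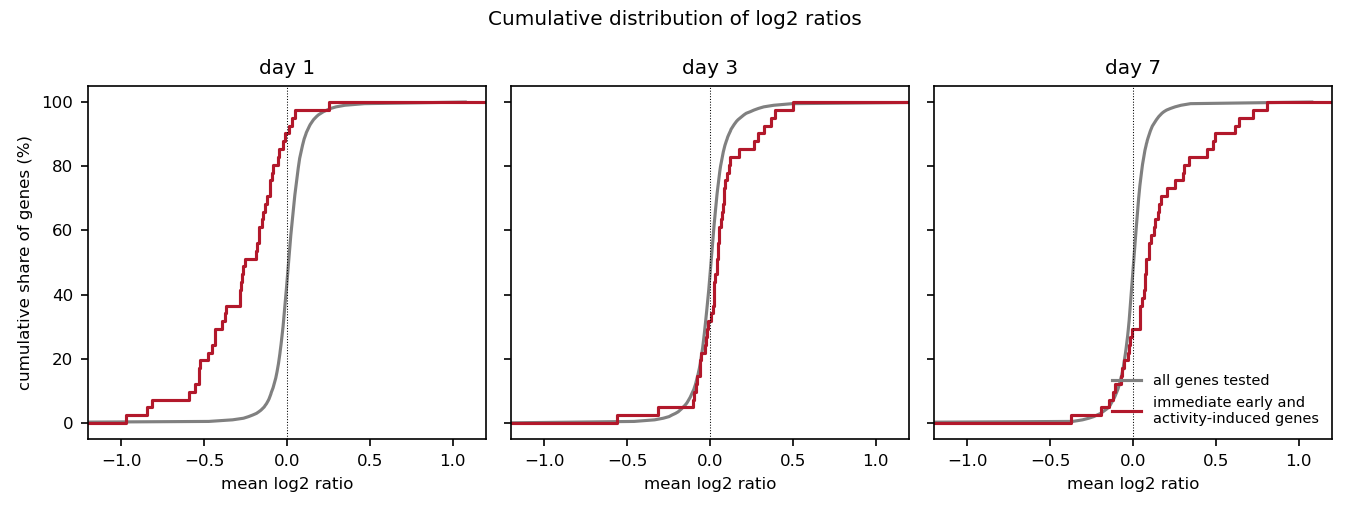
Cumulative share of genes, in percent, by mean log2 ratio at days 1, 3 and 7, for the 41 genes (red steps) and for all 14871 genes (grey line). The red steps lie to the left of the grey line at day 1, where their median is -0.25, and to the right of it over most of the range at day 7, where it is 0.079.

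Ier3, whose product is a short-lived protein involved in cell survival, had ratios of -0.52 and -0.66 in the 2 replicates of day 1. On single arrays its ratio was -0.56 and -0.48 in replicate 1 and -0.77 and -0.55 in replicate 2, with the axotomized RNA in Cy3 given before Cy5. All 4 arrays were well below 0. The mean of -0.59 ± 0.099 (SD, n = 2) amounts to 1.50-fold less RNA in the axotomized cultures (limma adjusted p = 0.0179). At day 3 the replicates stood at 0.056 and 0.053 and at day 7 at -0.17 and -0.13, so that neither later day overlapped day 1.

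Cyr61 encodes a secreted matrix protein, CCN1, that binds integrins and is a serum-induced early gene in fibroblasts. Its ratios at day 1 were -0.50 and -0.56, with a mean of -0.53 ± 0.048 (SD, n = 2), a 1.44-fold lower level (limma adjusted p = 0.0179). Both replicates were low, but the gene's 2 spots were far apart, with means of -0.95 and -0.11. Tested alone, the former passed at day 1 (limma adjusted p = 0.0338 over all spots) and the latter did not (0.462). It was the only spot of the list that passed by itself at day 1, where 0.00452% of all spots did. At day 3 Cyr61 lay at 0.024 and 0.079 and at day 7 at 0.12 and 0.039, all above every day 1 value.

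Gadd45g, a small stress protein that binds cell cycle regulators and MAP kinase kinase kinases, had ratios of -0.92 and -0.77 at day 1. On single arrays it stood at -0.85 and -0.99 in replicate 1 and at -0.55 and -0.98 in replicate 2, Cy3 before Cy5, so that 1 array was less low than the other 3. Its mean of -0.84 ± 0.11 (SD, n = 2) was the largest of the 4 calls, a 1.79-fold lower level (limma adjusted p = 0.0316). At day 3 it stood at -0.17 and -0.0020, and at day 7 at -0.019 and 0.32.

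Bhlhe40, a transcriptional repressor of the circadian clock that also responds to hypoxia and to neuronal activity, had ratios of -0.46 and -0.60 at day 1, with a mean of -0.53 ± 0.10 (SD, n = 2; limma adjusted p = 0.0410). Its 2 spots were close, at -0.44 and -0.62. Bhlhe40 stayed below 0 in every replicate of the study, at -0.38 and -0.25 at day 3 (limma adjusted p = 0.0971) and at -0.21 and -0.032 at day 7 (0.611). Its values at day 1 and at day 3 did not overlap.

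These calls rest on small groups. Without either replicate of day 1, or either of day 3, none of the 4 calls held, and most or all calls of the whole array were lost too. Such fits leave 1 sample on a day, which is assumed to vary like the others. Over the 6 fits without 1 replicate, day 1 means ran from -0.66 to -0.52 for Ier3 and from -0.56 to -0.50 for Cyr61. Those of Gadd45g ran from -0.92 to -0.77 and those of Bhlhe40 from -0.60 to -0.46. Without either replicate of day 7, Bhlhe40 gave way to Myc. With each day fitted alone none of the 4 passed (limma adjusted p = 0.0662 for Ier3, 0.0601 for Cyr61, 0.0513 for Gadd45g and 0.0737 for Bhlhe40), and with a replicate block Gadd45g alone did (0.0565 for Ier3 and Cyr61 and 0.0786 for Bhlhe40). After quantile normalization over all spots all 4 passed with larger means, at -1.59 for Ier3, -0.91 for Cyr61, -1.70 for Gadd45g and -0.99 for Bhlhe40. Over gene spots only, the means were close to those of the main fit, at -0.64, -0.48, -0.83 and -0.49 in the same order. There Ier3 and Cyr61 passed, while Gadd45g and Bhlhe40 did not (limma adjusted p = 0.0575 and 0.0519).

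**Figure D3:**
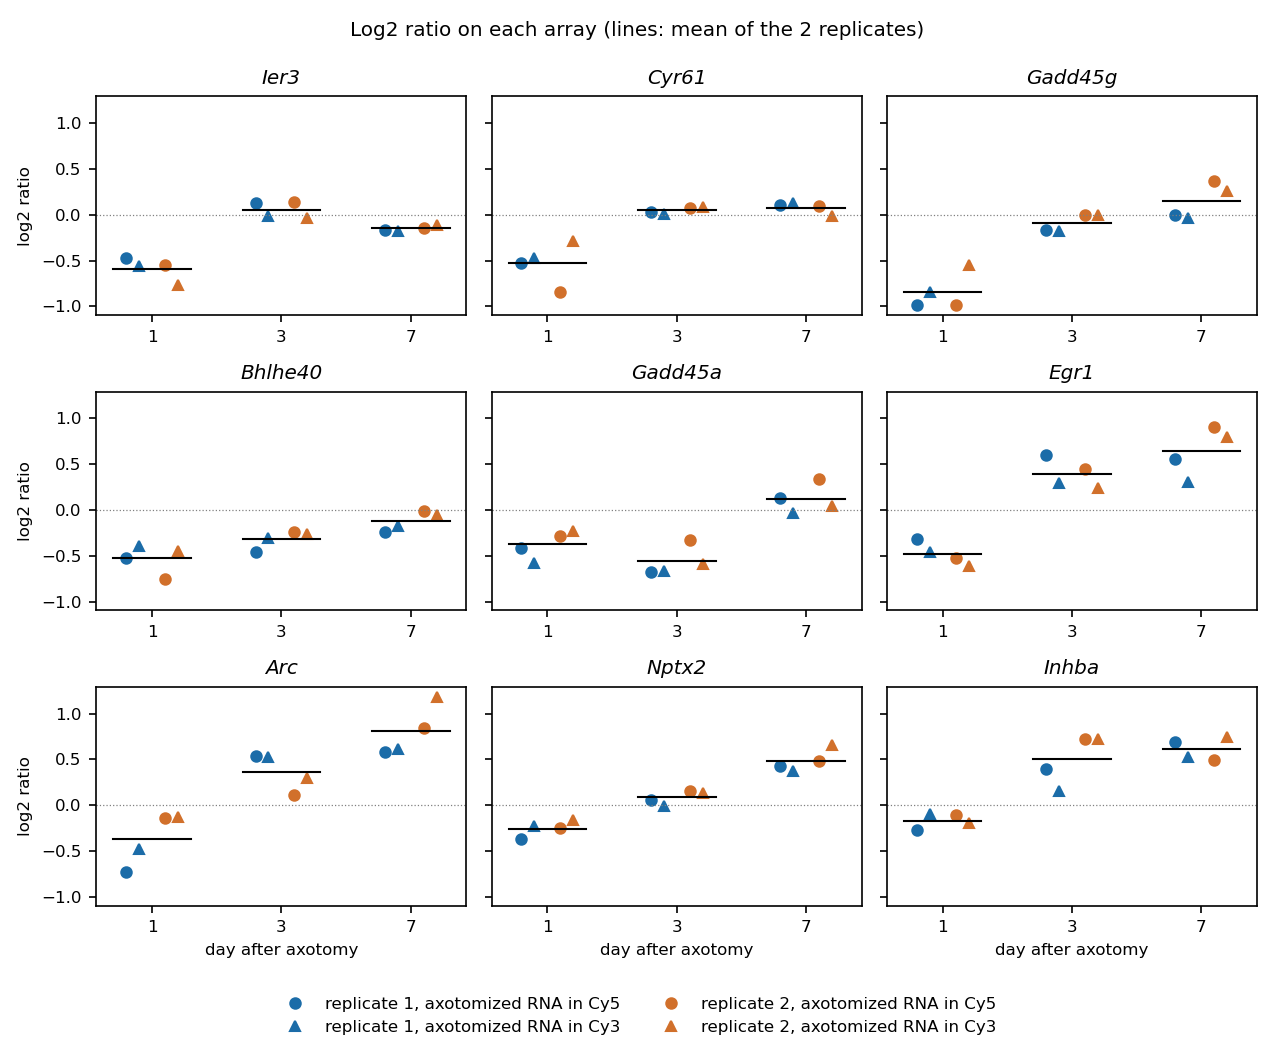
Log2 ratio on each of the 12 arrays for 9 genes, by day after axotomy. Circles are arrays with the axotomized RNA in Cy5 and triangles in Cy3, colours are the 2 replicates and lines are day means; Ier3, Cyr61, Gadd45g and Bhlhe40 are below 0 on all 4 arrays of day 1, Gadd45a on all 4 of day 3, and Egr1, Arc, Nptx2 and Inhba are above 0 on all 4 of day 7.

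Upstream sequence was available for 32 of the 41 measured genes, in 41 windows of a RefSeq promoter table (assembly GRCr8) that spans 33469 windows in all. The 250 bases before the annotated start are shown for the genes that passed a test, on which the results turn; Ier3 had no entry. Capitals mark motifs that a letter search found on either strand: CACGTG (E-box), CGTCA (the reverse complement of TGACG, the core of the cyclic AMP response element that CREB binds) and TTGCATCA (the reverse complement of TGATGNAA, the core of the amino acid response element).
Bhlhe40, chr4:143174200-143174449, plus strand: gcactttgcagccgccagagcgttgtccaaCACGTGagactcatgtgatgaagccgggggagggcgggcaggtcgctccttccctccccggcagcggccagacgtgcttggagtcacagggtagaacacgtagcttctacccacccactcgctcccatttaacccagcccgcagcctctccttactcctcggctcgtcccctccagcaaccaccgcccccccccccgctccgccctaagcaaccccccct
Cyr61 (Ccn1), chr2:237225690-237225939, minus strand: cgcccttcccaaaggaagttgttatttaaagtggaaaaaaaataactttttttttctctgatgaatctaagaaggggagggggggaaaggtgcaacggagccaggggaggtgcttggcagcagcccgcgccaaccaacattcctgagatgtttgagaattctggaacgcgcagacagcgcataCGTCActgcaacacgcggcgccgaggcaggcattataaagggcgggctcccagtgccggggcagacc
Gadd45a, chr4:97486800-97487049, minus strand: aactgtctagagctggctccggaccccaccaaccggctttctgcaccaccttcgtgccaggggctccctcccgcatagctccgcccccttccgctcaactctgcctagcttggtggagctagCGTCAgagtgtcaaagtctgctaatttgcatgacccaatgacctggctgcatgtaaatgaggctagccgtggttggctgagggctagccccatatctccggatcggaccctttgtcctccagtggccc
Gadd45g, chr17:13530352-13530601, minus strand: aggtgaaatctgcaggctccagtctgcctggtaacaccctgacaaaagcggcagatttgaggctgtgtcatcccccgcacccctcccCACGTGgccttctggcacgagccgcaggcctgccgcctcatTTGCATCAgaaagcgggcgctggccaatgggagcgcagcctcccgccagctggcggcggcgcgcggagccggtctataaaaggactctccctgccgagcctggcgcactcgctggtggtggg
Cyr61 and Gadd45a share the TGACG core, and Bhlhe40 and Gadd45g share the E-box; no single motif of the search stood in all 4.

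Across the list, TGACG stood in 21 of the 41 windows (51.2%), against 18.2% of all windows. The full element TGACGTCA, which contains that core, stood in 14.6% against 1.59%, in Crem, Dusp1, Ier2, Jund and Maff. The CArG box bound by serum response factor stood in 7.32% against 1.5%, in Dusp5, Egr1 and Egr2. CACGTG stood in 14.6% against 5.59%, GCGTGGGCG, the site of EGR proteins, in 4.88% against 0.478%, and TGATGNAA in 4.88% against 3.4%. TGACTCA, an AP-1 site, and AAAGGTCA, a site of NR4A receptors, stood in 0 of the 41 windows, against 4.05% and 1.24% of all windows. A match of letters is a description of these windows and not a measured binding site. Bdnf has 6 of the windows, and Crem and Sgk1 have 3 each.

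Among the AP-1 factors, dimers of Fos and Jun proteins, 6 of 7 listed genes were measured. All 6 had a mean below 0 at day 1, 5 of them in both replicates, with a median of -0.27. For Junb, Fosl2 and Jund, however, the sign at day 1 depended on the dye. Split by the dye of the axotomized cultures, their means were -0.81, -0.20 and -0.19 for Cy5 but 0.031, 0.095 and 0.17 for Cy3. Fosl1 and Jun lay below 0 on all 4 arrays of the day, and Fos on 3. Fos, the classical marker of recent firing, stood at -0.38 and -0.18, and Fosl1 at -0.28 and -0.25. Neither passed in limma (adjusted p = 0.163 and 0.0853). Jun, which neurons induce after axon injury, had ratios of -0.23 and -0.31 at day 1, 0.19 and 0.39 at day 3, and -0.18 and 0.036 at day 7. Its day 3 replicates were thus above all 4 others, though the mean of 0.29 did not pass (limma adjusted p = 0.142). The 2 spots of Fos differed at day 1, with means of -0.057 and -0.50. Fosl1 stayed below 0 at day 3, at -0.16 and -0.026. No AP-1 gene passed on any day. At an unadjusted p under 0.05 limma gave 4 lower at day 1, 1 higher at day 3 and 1 higher at day 7. Of all genes 5.42%, 7.81% and 4.83% were so.

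Of the 4 EGR factors, zinc finger proteins downstream of MAP kinase signals, Egr1, Egr2 and Egr4 lay below 0 in both replicates of day 1 and Egr3 stayed near 0, at 0.016 and 0.015 at day 1. Egr1 had ratios of -0.39 and -0.57 at day 1, 0.44 and 0.34 at day 3, and 0.43 and 0.85 at day 7. All 4 later replicates were far above both of day 1, yet none of the 3 day means passed (limma adjusted p = 0.157, 0.169 and 0.249), and the difference between days 7 and 1, 1.12 with an SE of 0.145, had an adjusted p of 0.0697. Egr4 stood at -0.69 and -0.21 at day 1, 0.59 and -0.061 at day 3, and -0.039 and 1.03 at day 7, so its replicates disagreed in sign on both later days. Egr2 did the same at day 7, at -0.40 and 0.48.

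The 11 other transcription factors held the lowest value of the list. Myc, which drives growth and proliferation, had ratios of -0.92 and -1.01 at day 1, with a mean of -0.97 ± 0.061 (SD, n = 2), a 1.96-fold lower ratio. This was below 0 on all 4 arrays but did not pass (limma adjusted p = 0.0730), with day 7 replicates of -0.54 and 0.15 in the same fit. Klf4, a Krüppel-like factor tied to cell state and axon regrowth, stood at -0.72 and -0.91 at day 1 (mean -0.81 ± 0.13, SD, n = 2; limma adjusted p = 0.0652), at -0.064 and 0.23 at day 3 and at -0.26 and 0.15 at day 7.

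The orphan nuclear receptor Nr4a1 stood at -0.61 and -0.44 at day 1, 0.26 and -0.11 at day 3, and 0.29 and 1.15 at day 7. Its day 7 mean of 0.72 ± 0.61 (SD, n = 2; limma adjusted p = 0.399) rested mostly on replicate 2. Nr4a3 stood at -0.55 and -0.33 at day 1 and at -0.37 and 0.33 at day 7. Nr4a2 had opposite signs in its 2 replicates at day 1 (-0.54 and 0.20) and at day 3. Its day 1 mean also turned with the dye of the axotomized RNA, at -0.41 for Cy5 and 0.072 for Cy3. The remaining factors, Npas4, Klf10, Maff, Crem and Per1, had day means between -0.12 and 0.17.

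For Maff, a small Maf protein, and for Npas4, a factor that neurons make after calcium influx, the sign followed the dye. In all 6 replicates both had a ratio below 0 with the axotomized RNA in Cy5 and above 0 with it in Cy3, which held for 7.1% of all genes. Maff ran from -0.27 to -0.16 in Cy5 and from 0.22 to 0.32 in Cy3, and its replicate means at day 1 were 0.0012 and 0.066. Junb did so in 5 of 6 replicates, and at day 1 stood at -0.74 and -0.88 in Cy5 and at -0.17 and 0.23 in Cy3. The day means of Maff and Npas4, over both dyes, lay between -0.12 and 0.041.

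Of the 7 genes of signalling feedback, 6 lay below 0 in both replicates of day 1. Split by the dye of the axotomized RNA, however, the mean of Dusp1 was -0.23 for Cy5 and 0.020 for Cy3. Sik1 stood at -0.51 and -0.062, and Dusp4, Dusp5, Dusp6 and Rgs2 were below 0 for both dyes. On the Cy3 array of replicate 2, Dusp1, Dusp5, Dusp6 and Sik1 lay above 0. Dusp1, Dusp4, Dusp5 and Dusp6, phosphatases that switch MAP kinases off, had day 1 means between -0.28 and -0.10, Sik1, a kinase that restrains CREB coactivators, had -0.29, and Rgs2, which shortens G protein signals, had -0.15. Dusp4 was among the lowest of the list at day 3, at -0.16 and -0.044. Sgk1, a kinase induced by serum and glucocorticoids, ran the other way. Its ratios were 0.40 and 0.11 at day 1, 0.19 and -0.13 at day 3, and -0.23 and -0.52 at day 7. Sgk1 had both the highest value of the list at day 1 (0.26 ± 0.20, SD, n = 2) and the lowest at day 7 (-0.37 ± 0.20). It was the only gene of the 41 whose day 7 replicates lay below both of day 1, where 24.9% of all genes did so. Neither mean passed in limma (adjusted p = 0.413 and 0.420), nor did the difference of -0.63 (0.193).

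Gadd45a, a stress protein induced by p53 and linked to DNA repair and demethylation, was the gene that passed at day 3. Its ratios there were -0.67 and -0.45, with -0.66, -0.67, -0.59 and -0.32 on the 4 arrays. The mean of -0.56 ± 0.15 (SD, n = 2) is a 1.48-fold lower level (limma adjusted p = 0.0494), and it rested more on 1 of the gene's 2 spots, at -0.81, than on the other, at -0.32. Gadd45a was also below 0 at day 1, at -0.50 and -0.25, and overlapped day 3 there, but lay above 0 at day 7, at 0.052 and 0.20. Gadd45a did not pass at day 3 without any 1 of the 6 replicates, with day 3 means from -0.67 to -0.45. Nor did it with day 3 fitted alone (limma adjusted p = 0.137) or with axotomized RNA in Cy5 only (0.0608). Quantile normalization over all spots (0.115, with a mean of -1.47) or over gene spots (0.0547) also left it short. It passed with a replicate block (0.0435), in Cy3 only (0.0438), with the median of spots (0.0490) and in both fits of the 12 unaveraged arrays. Gadd45b, its relative, stood at -0.49 and -0.38 at day 1 and near 0 at day 3, while Ier2 and Ier5 had day means between -0.15 and 0.11, with Ier5 at -0.011 and 0.11 at day 1.

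All 7 synaptic and secreted effectors lay below 0 in both replicates of day 1 and above 0 in both replicates of day 7, and at day 7 their median was 0.44. At an unadjusted p under 0.05 limma gave 6 of the 7 higher at day 7, against 4.83% of all genes, and 0 passed after adjustment. Arc, a postsynaptic protein that removes AMPA receptors, had ratios of -0.60 and -0.13 at day 1, 0.53 and 0.20 at day 3, and 0.60 and 1.01 at day 7. The 3 days did not overlap, and the day 7 mean of 0.81 ± 0.30 (SD, n = 2; 1.75-fold; limma adjusted p = 0.298) was the highest of the list. Inhba, the subunit of activin A, stood at -0.19 and -0.15, then 0.28 and 0.73, then 0.61 and 0.62, with adjusted p of 0.0969 at day 3 and 0.249 at day 7.

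Nptx2, a secreted pentraxin that clusters AMPA receptors, stood at -0.30 and -0.21 at day 1, 0.025 and 0.14 at day 3, and 0.40 and 0.57 at day 7. Its replicates were close and the days did not overlap; its day 7 mean of 0.48 ± 0.12 (SD, n = 2) had the smallest p of the list that day (limma adjusted p = 0.238). Bdnf, the neurotrophin, stood at -0.19 and -0.013 at day 1, 0.079 and 0.048 at day 3, and 0.24 and 0.65 at day 7. Of its 3 spots, 2 had day 7 means of 0.64 and 0.63 and the remaining spot 0.069. Homer1, a postsynaptic scaffold with a short form induced by activity, stood at -0.079 and -0.11 at day 1, 0.28 and 0.37 at day 3, and 0.075 and 0.34 at day 7; its 2 spots gave 0.094 and 0.55 at day 3. Which transcript form each spot reads is not given in the table. Ptgs2, cyclooxygenase 2, stood at 0.11 and 0.56 at day 7, with spots at 0.043 and 0.63.

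**Figure D4:**
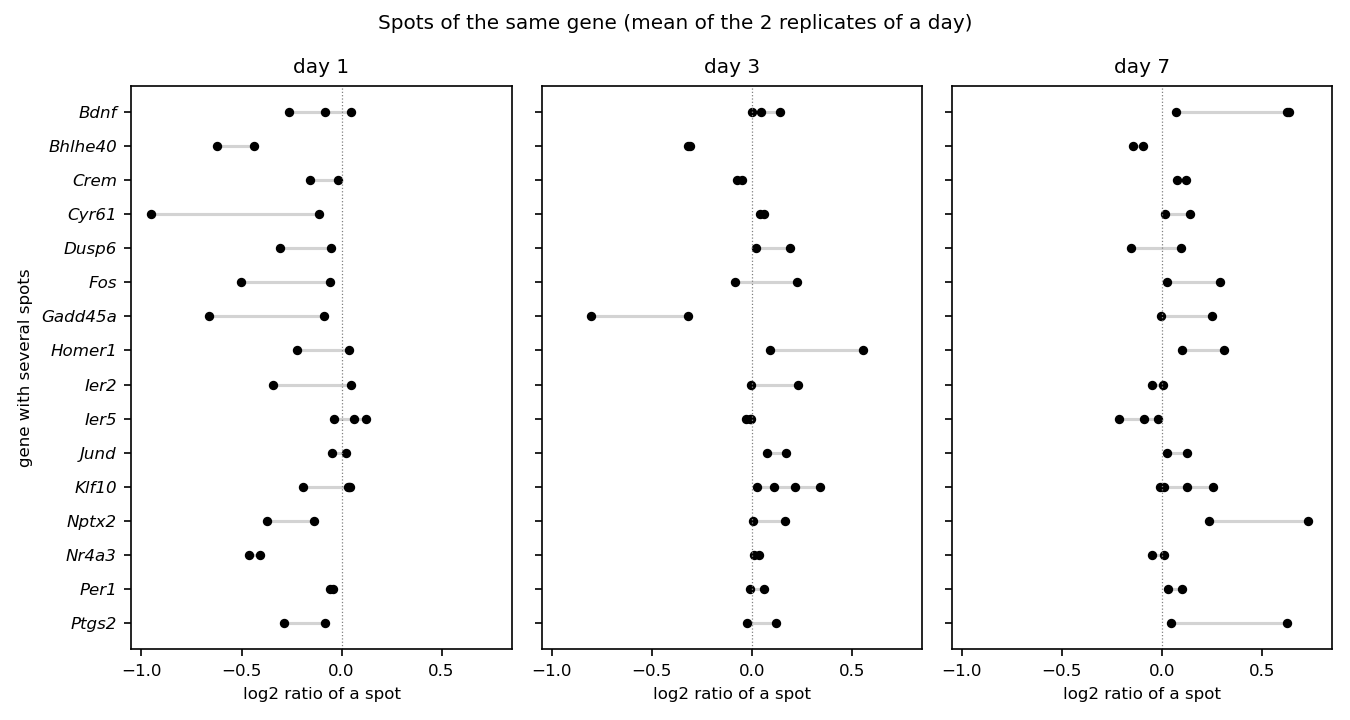
Log2 ratio of each spot (points, mean of the 2 replicates) for the 16 genes with several spots, at days 1, 3 and 7, with grey lines joining spots of a gene. The spots of Cyr61 are the farthest apart at day 1, at -0.95 and -0.11, those of Gadd45a stand at -0.81 and -0.32 at day 3, and those of Bdnf span 0.069 to 0.64 at day 7.

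Most of the 41 genes had higher ratios on the later days than at day 1. In 29 of the 41 genes both day 3 replicates lay above both day 1 replicates (17.1% of all genes), in 33 both day 7 replicates did (21.2% of all genes), and in 15 the day 7 replicates lay above both of day 3 (20.9% of all genes). The median difference was 0.26 between days 3 and 1, 0.42 between days 7 and 1, and 0.086 between days 7 and 3, where that of all genes was between -0.0060 and -0.0032. Since each day has its own controls, the differences compare ratios and not levels. Only Cyr61 passed, with 0.61 (SE 0.055) between days 7 and 1 (limma adjusted p = 0.0486), where 0.0605% of all genes were higher by this rule. Without any 1 of the 6 replicates it did not pass, with differences from 0.57 to 0.65. Nor did it with a replicate block (limma adjusted p = 0.0620), in Cy5 (0.0572) or Cy3 (0.225) only, or after quantile normalization over gene spots (0.0570). It passed with the median of spots (0.0489), after quantile normalization over all spots (0.00757) and in both fits of the 12 unaveraged arrays. Between days 3 and 1 (0% of all genes) and between days 7 and 3 (0.356%) 0 of the 41 passed, nor did any in the F test over the 3 days (0.134%), where Cyr61 (adjusted p = 0.0509) and Ier3 (0.0593) came nearest. At an unadjusted p under 0.05 limma gave 20 higher and 0 lower between days 3 and 1 (4.23% and 4.62% of all genes), 25 higher and 1 lower between days 7 and 1 (5.66% and 7.22%), 6 higher and 3 lower between days 7 and 3 (6.33% and 6.62%), and 28 in the F test (13.9%).

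**Figure D5:**
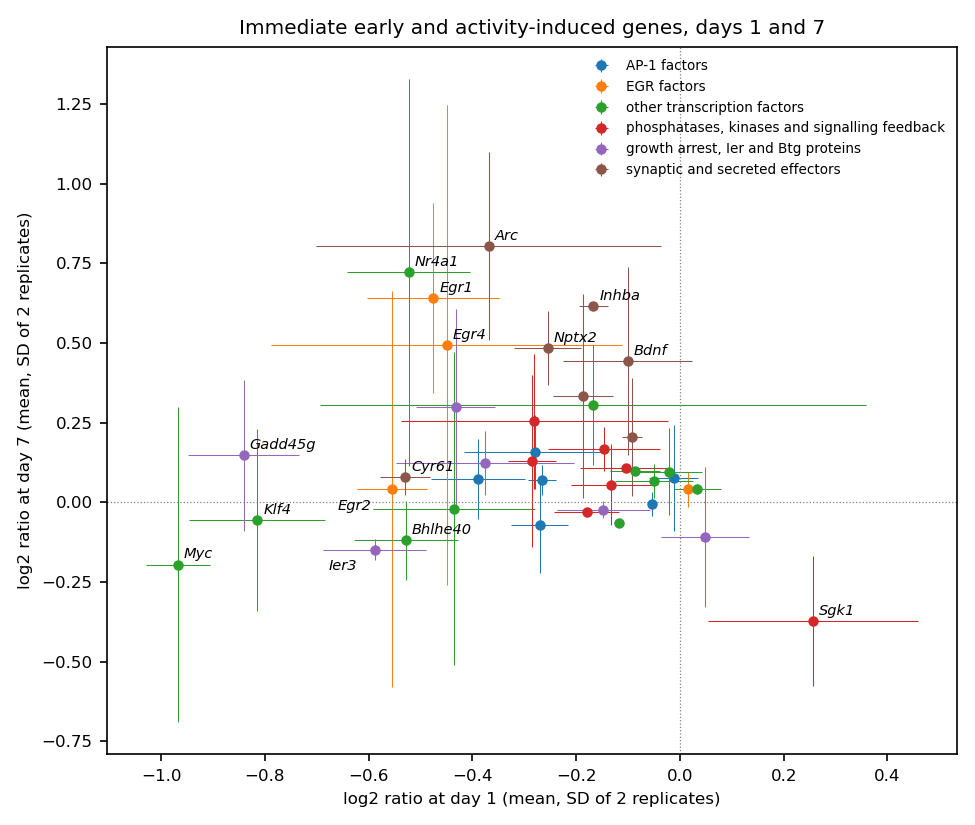
Log2 ratio at day 7 against day 1 for the 41 genes, coloured by role, with points at the mean and bars showing the SD of the 2 replicates. Most genes lie to the left of 0 at day 1; Arc, Nr4a1 and Egr1 lie highest at day 7, at 0.81, 0.72 and 0.64, and Sgk1 sits alone at the lower right, at 0.26 and -0.37.

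At day 7 the replicates of these genes lay farther apart than those of most genes, while their correlation was higher. The median gap between the 2 replicates was 0.19 for the 41 genes at day 7 and 0.061 for all genes. At day 1 it was 0.11 and 0.065. Pearson's r between the day 7 replicates was 0.46 across the 41 genes and 0.29 across all genes, which are not independent replicates. Replicate 2 of day 7 held the highest values, with a median of 0.15 against 0.052 in replicate 1, and Egr4, Nr4a1 and Arc exceeded 1 there alone. The 2 arrays of that replicate were close for these genes (Pearson r = 0.88 across the 41 genes and 0.23 across all genes).

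Related genes of the pathway outside the list were taken from general knowledge. Of 20 upstream regulators, such as Creb1, Srf and MAP kinases, 14 were measured and 0 passed on any day. At an unadjusted p under 0.05 limma gave 2 of them lower at day 1, where 5.42% of all genes were, and 0 on the other days. Their medians lay between -0.030 and 0.0025. Of 15 other early response genes, all measured, 13 were below 0 at day 1, with a median of -0.14. Atf3, a stress-induced factor, had the lowest mean at -1.33 ± 0.12 (SD, n = 2), with a limma adjusted p of 0.0654. Of these 15 genes 0 passed on any day, with 9 lower at day 1 at an unadjusted p under 0.05 in limma (5.42% of all genes). Of 15 later activity-regulated genes 14 were measured. At day 7, 13 had means above 0, with 12 above 0 in both replicates (31.7% of all genes) and a median of 0.18. At an unadjusted p under 0.05 limma gave 1 higher and 5 lower at day 1 (7.81% and 5.42% of all genes). It gave 1 and 4 at day 3 (7.81% and 6.62%), and 8 and 0 at day 7 (4.83% and 4.53%). Scg2, which encodes secretogranin II, a granule protein of neurons, was lower at day 3 (-0.84 ± 0.24, SD, n = 2, limma adjusted p = 0.0416). Of all genes 0.437% were lower by this rule. Its day 7 mean was 0.56.

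At day 1 the markers of each cell type had a median nearer to 0 than that of the listed genes. At day 3 this held only for the neuron markers, and at day 7 not for the neuron, oligodendrocyte and choroid plexus markers. The listed genes had medians of 0.041 and 0.079 on these later days, and the oligodendrocyte markers 0.29 and 0.39. The part of cell types in the results was not tested. The 8 neuron markers had a median of -0.15 in replicate 1 and 0.055 in replicate 2 of day 1, -0.10 and 0.10 at day 3, and 0.17 and 0.12 at day 7. Of these 8, 0 passed on any day, with 2 higher at day 7 at an unadjusted p under 0.05 in limma (4.83% of all genes). The 6 microglia markers had medians of 0.13, 0.22 and -0.076 on the 3 days, with 0 past the test. At an unadjusted p under 0.05 in limma 3 were higher, 3 higher and 2 lower, against 7.81%, 7.81% and 4.53% of all genes. Of 6 astrocyte markers Gjb6 (0.40 ± 0.016, SD, n = 2) and Aqp4 (0.34 ± 0.10) were higher at day 3 (limma adjusted p = 0.0232 and 0.0468), and of 5 oligodendrocyte markers measured Sox10 was (0.63 ± 0.087; 0.0432), where 0.592% of all genes were; the medians of both groups were between -0.040 and 0.39. The 4 endothelium and 5 fibroblast markers had medians between -0.033 and 0.18. Among the 4 choroid plexus markers, Ttr stood at -2.17 ± 0.54 (SD, n = 2) at day 7 (limma adjusted p = 0.353), and the medians of the 4 were 0.031, 0.19 and -0.16 on the 3 days.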

How the data were processed

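RNA of 6 biological replicates, 2 for each of 3 days, was measured on 12 two-colour arrays. The authors deposited 1 log2 ratio per spot and array (44290 spots), made with limma, per the submitters' processing notes. The limma version, background correction, normalization and log base were not found in the labels or the file, and base 2 was taken from limma's convention. Column medians lay between -0.022 and 0.027. On 731 spots with no listed gene the ratio turned with the dyes (median -4.58 with axotomized RNA in Cy5 and 3.92 in Cy3), so the columns were taken to run in 1 RNA direction.

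Of the spots, 23535 had 1 gene symbol, 48 several and 20707 none. Spots of a symbol were averaged, giving 14871 genes, then the dye-swapped arrays of a replicate. Older symbols were matched through RefSeq synonyms. For each gene, limma 3.58.1 (R 4.3.3, with the package data.table, version 1.17.8) tested 1 coefficient per day against 0, the contrasts of days and their F test, with 3 residual and 2.72 prior degrees of freedom, Benjamini-Hochberg adjustment over all genes and a threshold of 0.05. The fit was tested on simulated data. Figures used Python 3.11.15 and matplotlib 3.10.9.

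The genes and lists were chosen with earlier results of these data known, so their direction has no independent support here. Replicate values were given for genes past the threshold and, on each day, for the 4 highest and 4 lowest; those of other genes of the list were added after their values were seen, to describe each role. From other lists at most 3 genes were named per list. The labels do not say whether same-numbered replicates of different days were paired. Their deviations from the day means correlated at 0.26 between days 1 and 3, -0.068 between days 1 and 7 and 0.014 between days 3 and 7, which cannot settle this. The main fit used no block, and a replicate block was run as an alternative. The number of arrays limits the precision. No slide or scan information was found, so no batch could be tested. Alternatives were a replicate block, each day alone, each dye orientation alone, the 12 arrays unaveraged, quantile normalization, single spots, the median of spots and leaving out each replicate.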

Additional observations from a re-analysis of the deposited data

Results flagged for a closer look

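In 6 of 123 combinations of a gene and a day, 1 of the 4 arrays stood apart from the other 3. For 4 independent values chance sets 1 apart in about 1 of 20. The arrays of a day are 2 dye-swapped pairs, so that rate need not hold here. Klf10 at day 1 was at -0.14 in replicate 2 with axotomized RNA in Cy3, while the other arrays lay between 0.0083 and 0.039. Gadd45b at day 1 was at -0.27 on the same array and at -0.50 to -0.47 on the others. Dusp4 at day 3 was at -0.28 in replicate 1 with axotomized RNA in Cy3, against -0.056 to -0.033. Bdnf at day 3 was at 0.013 in replicate 2 in Cy3, against 0.075 to 0.083. Fosl2 at day 7 was at 0.085 in replicate 1 in Cy3, against -0.042 to -0.032. Rgs2 at day 7 was at 0.031 in replicate 2 with axotomized RNA in Cy5, against 0.21 to 0.22. None of these genes passed the limma test on the day named.

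The axotomy ratio of Cyr61 differed between days 7 and 1 by 0.61 in the test of the difference itself (SE 0.055, limma adjusted p = 0.0486, n = 2 replicates a day), with both day 7 replicates above both of day 1. The former of its 2 spots stood at -0.95 at day 1 and 0.14 at day 7, and the latter at -0.11 and 0.016.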

How the results depend on the processing

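The direction of the medians at days 1, 3 and 7 did not turn under any alternative that was run; among genes given by the rule for replicate values, 322 alternative values kept their sign and their side of the threshold, 49 no longer passed, 28 newly passed and 5 turned sign, of genes that had not passed. The 49 could come only from the 4 calls at day 1 and Gadd45a at day 3, with 15 alternatives each, and the Cyr61 difference, with 14. The other values had no call to lose. In Cy5 only, Maff at day 1 was -0.22, Egr3 -0.063 and Ier5 -0.095. Leaving out a day 1 replicate gave -0.011 to 0.11 for Ier5, and leaving out a day 7 replicate -0.54 to 0.15 for Myc at day 7, each sign turning in 1 of the 2 fits. With a replicate block 1 gene, Gadd45g, passed at day 1, where 14 of all genes did, and 2, Gadd45g and Nptx2 but not Cyr61, between days 7 and 1. The day 3 median was then 0.0058. Each day alone gave 1 gene at day 1, Myc (limma adjusted p = 0.0292), in place of the 4, among 13 of all genes, and 0 at day 3. With axotomized RNA in Cy5 only, 13 genes passed at day 1, with the 4 reported among them, and 3 at day 3 (Npas4, Homer1 and Inhba, not Gadd45a). Calls also rose over the whole array, to 654 and 298 of the 14871 genes on these days, from 88 and 153 in the main fit. Between days 7 and 1, 4 of the list passed in Cy5 only (Junb, Egr1, Gadd45g and Nptx2, not Cyr61). In Cy3 only, 2 (Bhlhe40 and Ier3) passed at day 1, among 56 of all genes, and 0 between days 7 and 1. The medians were -0.18 at day 1 and 0.017 at day 3. Quantile normalization over all spots gave 0 at day 3, where 75 of all genes passed, 2 between days 3 and 1, 5 between days 7 and 1 and 4 in the F test. At day 1 the same 4 genes passed, among 112 of all genes. This normalization made the ratios larger, such as Myc at day 1 (-0.97 to -1.78), Klf4 at day 1 (-0.81 to -1.75), and Arc (0.81 to 1.58), Egr1 (0.64 to 1.48) and Inhba (0.62 to 1.47) at day 7. Quantile normalization over gene spots, chosen after seeing the data, gave 2 at day 1 (Ier3 and Cyr61), among 70 of all genes. It gave 0 at day 3, where 156 of all genes passed, and 0 between days 7 and 1. Under it Myc and Klf4 stood at -0.97 and -0.99 at day 1, and Arc, Egr1 and Inhba at 1.03, 0.82 and 0.74 at day 7. Single spots gave 1 at day 1 and 0 at day 3, where 0.00452% and 0.102% of all spots passed. With the 12 arrays in a random block (estimated correlation within a replicate -0.17, so the arrays of a replicate counted as separate samples), 16, 7 and 7 genes passed at days 1, 3 and 7, among 4.84%, 7.15% and 1.94% of all genes. Between days 3 and 1, 14 passed (2.62% of all genes), between days 7 and 1, 22 (5.84%), between days 7 and 3, 4 (6.17%), and in the F test 24. With a dye term as well these counts were 13, 7, 6, 11, 20, 3 and 20. Of all genes 3.99%, 6.44%, 1.3%, 1.95%, 4.88% and 5.59% passed there, the F test left out. All genes were counted for the differences between days only in the main fit and these 2 fits, and for the F test only in the main fit. Leaving out 1 replicate assumes that a lone sample varies like the others. Medians then ran from -0.28 to -0.18 at day 1, 0.019 to 0.041 at day 3 and 0.052 to 0.15 at day 7. In each such fit, fewer genes of the whole array passed at days 1 and 3 than in the main fit. The list had no more calls there than in the main fit, and none between days 7 and 1. At day 3 without replicate 1, Inhba passed in place of Gadd45a, at 0.73. A filter on dim spots was not run, since the table holds no intensity.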
